A study of Mus musculus with 36 samples.

Results

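Transcripts of 48 cell cycle and DNA replication genes were examined, chosen by gene symbol from the 54532 genes of the count table. They comprise G1 cyclins and kinases, inhibitors of cyclin-dependent kinases (CDKs), transcription factors of the cycle, origin licensing and replication fork proteins, enzymes of deoxynucleotide supply, the S, G2 and M cyclins and kinases, and mitotic proteins including the proliferation marker Ki-67. All 48 were found once in the table and all 48 passed the filter on low counts in each comparison. The cells were bone marrow-derived macrophages (BMDMs) of female C57BL/6 mice aged 13 to 17 weeks, grown for 7 days with the growth factor MCSF. The macrophages termed WT carry Bmal1 flox/flox alleles without Cre (n = 3), and those termed KO carry the same alleles with LysM-Cre, which is expressed in myeloid cells (n = 6). Both genotypes were exposed for 6 h to 1 of 4 treatments, namely DMSO as vehicle, CCM at 100 µM, LPS at 100 nM, or both agents, in 36 libraries. CCM (Core Circadian Modulator) is a small-molecule ligand of the PASB domain of the clock transcription factor BMAL1, and LPS is a bacterial cell wall component that activates macrophages through TLR4.

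As background, D-type cyclins with CDK4 and CDK6, followed by cyclin E with CDK2, release E2F factors from the retinoblastoma proteins and so start the transcription of replication genes. The MCM helicase is loaded on origins by Cdc6 and Cdt1, and later in the cycle Foxm1 and B-Myb drive genes of G2 and mitosis. The CDK inhibitor p21, encoded by Cdkn1a, opposes this sequence, and Myc and Mxd1 compete for the partner Max with opposite effects on growth genes. BMDMs divide in response to MCSF, and LPS is known to halt that division.

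Libraries held 13469262 to 28288923 counted read pairs. Levels are given as CPM, read pairs scaled to a common library total and corrected by the TMM factors of edgeR over all 36 libraries, and a gene is termed called where the Benjamini-Hochberg adjusted p of edgeR's quasi-likelihood test over all genes was at most 0.05. The 4 libraries of KO replicate 6 stood apart from the other 32. Their mitochondrial share was 0.2545 to 0.4489% of counts against 0.7544 to 1.567%, with 15993 to 17308 genes detected against 19375 to 21624, and results in KO are therefore also given without them. Macrophage markers were abundant in all libraries (Lyz2 5860 to 15200 CPM, Csf1r 1230 to 2360 CPM). Of 9 neutrophil markers, Ly6g did not exceed 0.562 CPM, but S100a8 had 97.4 to 405 CPM, S100a9 135 to 479 CPM and Ngp 97 to 275 CPM. Of 7 fibroblast markers, Lum did not exceed 1.43 CPM, but Col1a1 had 118 to 776 CPM, Col1a2 134 to 652 CPM and Col3a1 25.1 to 210 CPM. The transcript of Bmal1 (Arntl) had 7.52 to 12.9 CPM in WT and 2.02 to 10.8 CPM in KO libraries. Whole-gene counts include exons outside the deleted part, so this does not check the deletion.

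LPS lowered most of the cell cycle genes in WT macrophages while raising 4 of them. Of the 48 genes, 39 were called lower after 6 h, where 32.4% of all genes tested were called lower, and 4 were called higher, where 30.6% were. The median log2 fold change over the 48 was -1.524, against -0.053 over all 14501 genes tested. For 40 genes every LPS library lay below every vehicle library, as it did for 37.3% of all genes. In bulk RNA, fewer dividing cells and less transcript per cell cannot be told apart. The origin licensing and fork genes fell in 10 of 10 cases, the S, G2 and M cyclins and kinases in 8 of 8, the transcription factors in 7 of 8 and the mitotic genes in 6 of 7. The deoxynucleotide genes fell in 3 of 4. The G1 cyclins and kinases were divided, with 2 higher, 4 lower and 2 not called. With libraries scaled by total counts alone, the median of all genes under LPS moved to -0.465 in WT and -0.438 in KO, and 4 members were still called higher, with 42 lower in WT, where 17.6% of all genes were called higher and 55.6% lower.

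**Figure D1:**
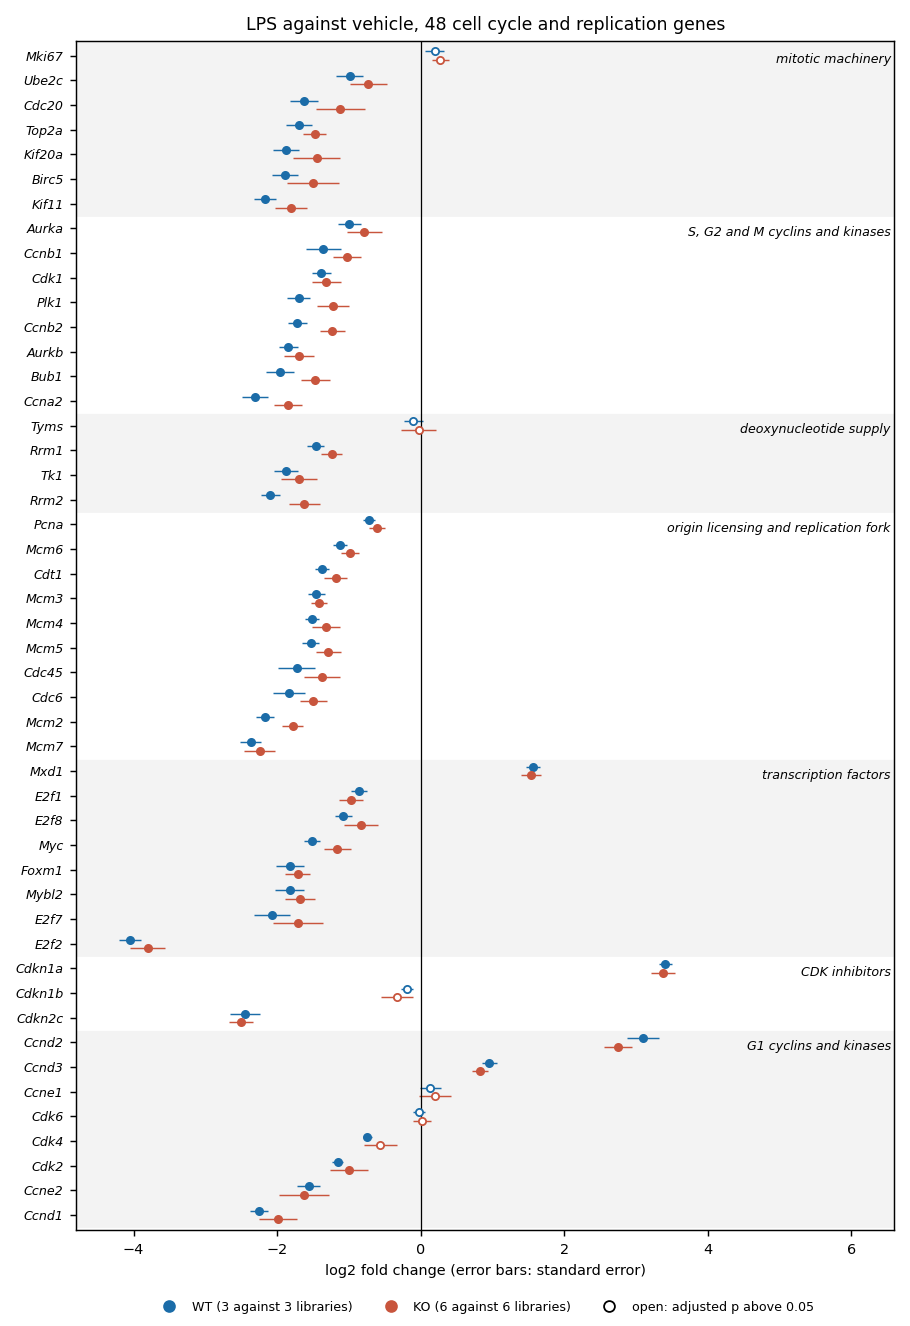
Log2 fold change of each of the 48 genes between LPS and vehicle, with its standard error, in WT (blue, n = 3 per group) and KO (red, n = 6 per group) macrophages, grouped by role, with open symbols for genes not called. The filled symbols right of 0 are Cdkn1a, Ccnd2, Mxd1 and Ccnd3 in both genotypes, and 39 genes in WT and 38 in KO are filled left of 0.

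Among the CDK inhibitors, Cdkn1a showed the largest rise of the 48. The gene encodes p21, which inhibits cyclin-CDK complexes, and lies on chromosome 17 from 29090976 to 29100727 (mm10). WT vehicle libraries had 74.8, 75.4 and 75.6 CPM and WT LPS libraries 881, 768 and 700 CPM. The groups were far apart, and the log2 fold change was 3.41 (standard error 0.0894, adjusted p = 5.21e-10), a 10.6-fold rise. Cdkn2c, which encodes p18, an inhibitor of CDK4 and CDK6, moved the opposite way. It had 32.7, 30.6 and 21.5 CPM with vehicle and 4.19, 6.69 and 4.19 CPM with LPS, a fall by 2.45 on the log2 scale (standard error 0.208, adjusted p = 3.36e-06). The inhibitor p27, encoded by Cdkn1b, had a log2 fold change of -0.19 (adjusted p = 0.059). Its 3 LPS libraries, at 21.9 to 23.2 CPM, lay below its 3 vehicle libraries, at 25.2 to 28.3 CPM.

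The D-type cyclins, the regulatory partners of CDK4 and CDK6, changed in opposite directions. Ccnd1 fell from 55.8, 69.6 and 58.0 CPM to 11.3, 11.4 and 14.8 CPM (log2 fold change -2.25, standard error 0.127, adjusted p = 1.53e-07). Ccnd2 rose from 7.17, 10.6 and 15.8 CPM to 91.1, 107 and 87.3 CPM, by 3.10 on the log2 scale (standard error 0.227, adjusted p = 1.11e-06). Ccnd3 rose less, from 34.0, 34.2 and 34.9 CPM to 54.1, 68.7 and 73.0 CPM (log2 fold change 0.96, standard error 0.102, adjusted p = 1.93e-05). The counts of Ccnd1 and Ccnd3 are uncertain because they overlap Oraov1 and Bysl. None of the 3 genes had overlapping groups, as was the case for 69% of all genes. Scaled per kilobase of gene model, Ccnd1 made up 71.7% ± 3.07 (SD, n = 3) of the summed D-type cyclin level in WT vehicle libraries and 13.2% ± 1.95 with LPS, while the share of Ccnd2 went from 6.55% ± 2.48 to 50.1% ± 4.65. The sum itself was 18.1 ± 1.66 CPM per kilobase with vehicle and 20.2 ± 1.74 with LPS, a difference not larger than the spread between libraries (two-sided exact permutation test, p = 0.2). With 3 libraries against 3 the smallest p of such a test is 0.1, which both share changes reached. Of the kinases, Cdk4 (-0.74, with a count that is uncertain because it overlaps Tspan31) and Cdk2 (-1.16) were called lower and Cdk6 was not called (-0.02, adjusted p = 0.83). The cyclin E genes that partner CDK2 differed, Ccne2 being called lower (-1.56) and Ccne1 not called (0.14, adjusted p = 0.426).

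**Figure D2:**
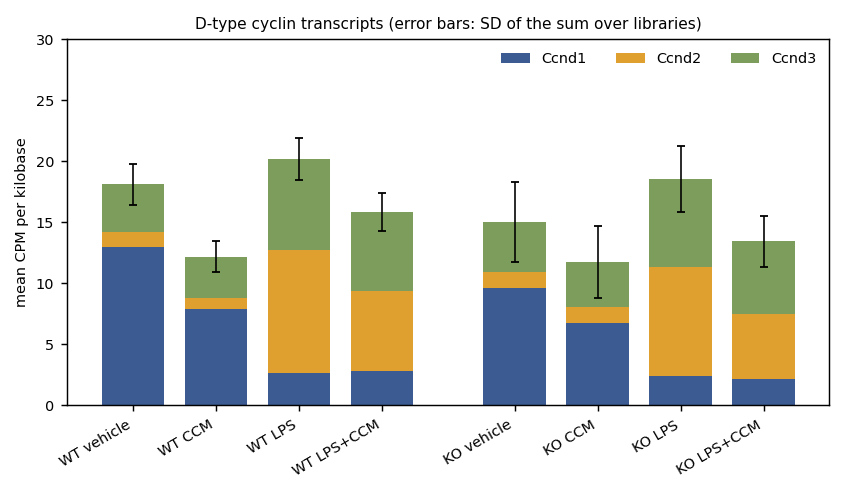
Stacked bars give the mean CPM per kilobase of Ccnd1, Ccnd2 and Ccnd3 in each genotype and treatment (WT n = 3, KO n = 6), with error bars for the SD of the sum over libraries. The sum is 18.1 with vehicle and 20.2 with LPS in WT, while the Ccnd1 part shrinks and the Ccnd2 part grows with LPS in both genotypes.

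Of the transcription factors, 7 of 8 fell with LPS. E2f2, which encodes an activating E2F factor (chromosome 4, 136172394 to 136196057), showed the largest fall of the 48 genes. It went from 28.1, 29.3 and 23.1 CPM to 1.89, 1.35 and 1.57 CPM, by -4.05 on the log2 scale (standard error 0.156, adjusted p = 8.16e-09). E2f1, the other activating E2F gene listed, fell less, from 40.4, 45.0 and 38.0 CPM to 18.5, 23.3 and 24.7 CPM (log2 fold change -0.85, standard error 0.11, adjusted p = 7.28e-05). The repressive family members E2f7 (-2.07) and E2f8 (-1.08), and Foxm1 (-1.82) and Mybl2 (-1.83), which drive G2 and mitotic genes, were called lower as well.

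Myc and Mxd1, which encode competing partners of Max, moved apart. Myc fell from 31.6, 35.5 and 32.3 CPM to 10.5, 10.4 and 13.2 CPM (log2 fold change -1.51, standard error 0.108, adjusted p = 9.43e-07). Mxd1 rose from 19.7, 18.7 and 21.2 CPM to 50.4, 57.4 and 65.2 CPM (log2 fold change 1.57, standard error 0.099, adjusted p = 3.57e-07). On the log2 scale and per kilobase, the level of Myc over that of Mxd1 therefore went from 2.12 ± 0.164 to -0.966 ± 0.107 (SD, n = 3 each).

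All 10 licensing and fork genes fell. The 6 genes of the MCM helicase lost between 1.13 (Mcm6) and 2.37 (Mcm7) on the log2 scale. Mcm7 (chromosome 5, 138164583 to 138172422) went from 56.7, 62.5 and 49.6 CPM to 7.97, 12.2 and 11.4 CPM (standard error 0.144, adjusted p = 2.56e-07), and its count is uncertain because the interval overlaps Ap4m1 and Cops6. Mcm2 went from 38.5, 47.3 and 38.2 CPM to 7.44, 9.64 and 9.66 CPM (log2 fold change -2.17, standard error 0.126, adjusted p = 1.9e-07). Mcm5 went from 61.6, 66.5 and 55.5 CPM to 16.6, 21.8 and 23.5 CPM (-1.53, standard error 0.12, adjusted p = 1.87e-06). The helicase loaders Cdc6 (-1.83) and Cdt1 (-1.38) and the helicase component Cdc45 (-1.73, overlapping Ufd1) fell by similar amounts. Pcna, the sliding clamp of the fork, had the smallest fall of the 10, with 460, 437 and 360 CPM before and 263, 240 and 246 CPM after LPS (-0.72, standard error 0.0858). Even so, Pcna was the highest of the 48 per kilobase in WT vehicle libraries, at 175 ± 21.9 CPM per kilobase, ahead of Cdk4 at 28.1 ± 1.09. In deoxynucleotide supply, the ribonucleotide reductase subunits Rrm2 (-2.10) and Rrm1 (-1.46) and thymidine kinase Tk1 (-1.88) fell, and thymidylate synthase Tyms was not called (-0.10, adjusted p = 0.522).

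Promoters were read from RefSeq on GRCm38.p6 to see which sequence motifs the falling genes share. Entries were found for 39 of the 48 genes, with 44 promoters of 250 bases before and 50 bases after the start. An E2F motif (TTTCCCGC, TTTGGCGC, TTTCGCGC or TTTGCCGC, on either strand) stood in 10 of the 44, or 22.7%, and in 2.26% of all 32851 promoters of that length. By gene it was found in 6 of the 9 licensing and fork genes with an entry (Cdc6, Cdt1, Mcm3, Mcm5, Mcm6 and Mcm7) and in E2f2, E2f7, Cdk1 and Cdk2. All 10 of these genes were called lower with LPS in WT, as were 21 of the 29 genes with an entry and no E2F motif. The CHR motif TTTGAA, found at genes of G2 and mitosis, stood in 13 of the 44 (29.5%, against 17.9% of all promoters), among them those of 4 of 6 S, G2 and M genes and 5 of 6 mitotic genes. Of the 13 genes with a CHR, 12 were called lower and Mki67 was not called, against 19 of the 26 genes without. The CCAAT box stood in 68.2% against 37.4%. Of 28 genes with it, 24 were called lower and 2, Mxd1 and Ccnd3, higher. Of 11 genes without it, 7 were called lower and 1 higher. The E-box CACGTG, the motif bound by BMAL1 with CLOCK, stood in 4 promoters (9.09%, against 7.15% of all), those of Cdk4, Cdk6, Cdkn2c and Tyms. Each motif was searched separately, whether or not matches of different motifs overlapped, and a match describes the sequence and is not a measured binding site. The 250 bases before the start follow for 2 genes with the E2F motif and 2 with the CHR, picked after their values were seen as the largest falls with LPS in WT among genes with the motif in those bases (for the CHR, among S, G2, M and mitotic genes). Capitals mark motif letters on either strand. Mcm7 lies at chr5:138171884-138172133 on the minus strand with the E2F motif 165 bases before the start and CCAAT boxes at 72 and 26. E2f7 lies at chr10:110745189-110745438 on the plus strand with the E2F motif at 198 and CCAAT boxes at 46 and 14. Kif11 lies at chr19:37376132-37376381 on the plus strand with the CHR at 19 and a CCAAT box at 45, and Ccnb2 at chr9:70421555-70421804 on the minus strand with the CHR at 167 and CCAAT boxes at 87, 54 and 21.
Mcm7: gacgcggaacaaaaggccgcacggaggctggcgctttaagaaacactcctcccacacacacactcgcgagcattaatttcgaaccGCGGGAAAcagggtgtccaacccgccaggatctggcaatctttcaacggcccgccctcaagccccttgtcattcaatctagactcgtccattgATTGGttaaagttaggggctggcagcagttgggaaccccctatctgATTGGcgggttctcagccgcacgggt
E2f7: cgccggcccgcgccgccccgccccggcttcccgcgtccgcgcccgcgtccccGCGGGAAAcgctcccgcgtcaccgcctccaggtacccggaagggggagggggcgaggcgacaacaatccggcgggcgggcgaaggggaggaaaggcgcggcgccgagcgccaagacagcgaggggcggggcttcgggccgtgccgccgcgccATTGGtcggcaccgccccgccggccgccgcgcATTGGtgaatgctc
Kif11: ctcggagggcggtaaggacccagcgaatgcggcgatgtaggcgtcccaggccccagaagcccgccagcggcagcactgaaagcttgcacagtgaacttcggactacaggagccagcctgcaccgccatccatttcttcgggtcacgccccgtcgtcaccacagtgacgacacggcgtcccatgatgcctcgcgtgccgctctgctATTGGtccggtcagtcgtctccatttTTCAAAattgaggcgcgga
Ccnb2: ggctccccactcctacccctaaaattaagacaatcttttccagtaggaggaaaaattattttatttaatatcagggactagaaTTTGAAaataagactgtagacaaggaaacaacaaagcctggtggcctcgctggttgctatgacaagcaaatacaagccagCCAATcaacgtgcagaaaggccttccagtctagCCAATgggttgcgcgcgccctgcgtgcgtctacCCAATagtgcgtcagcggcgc

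The genes of S phase, G2 and mitosis fell, apart from Mki67, by between 0.99 and 2.31 on the log2 scale. Ccna2, which encodes the cyclin of S phase and G2, went from 41.6, 45.1 and 33.7 CPM to 5.26, 8.95 and 9.18 CPM (log2 fold change -2.31, standard error 0.181, adjusted p = 1.87e-06). Ccnb1 (-1.36) and Ccnb2 (-1.72), the mitotic cyclins, and Cdk1 (-1.38), their kinase, were called lower. So were the mitotic kinases Plk1 (-1.70), Aurkb (-1.84), Aurka (-0.99) and Bub1 (-1.96). Summed over the 8 genes, WT vehicle libraries had 188 to 253 CPM and WT LPS libraries 55.1 to 78.3 CPM. Of the mitotic machinery, the spindle motors Kif11 (-2.17) and Kif20a (-1.88), topoisomerase Top2a (-1.69), survivin (Birc5, -1.90), and the APC/C activator Cdc20 (-1.62) and its E2 enzyme Ube2c (-0.99) fell. The count of Cdc20 is uncertain because it overlaps the highly counted gene Elovl1.

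Mki67, the gene of the proliferation marker Ki-67, did not follow them. It had 129, 154 and 108 CPM with vehicle and 153, 162 and 125 CPM with LPS in WT (log2 fold change 0.20, standard error 0.133, adjusted p = 0.221). In KO its lowest, median and highest values were 87.1, 112 and 133 CPM with vehicle and 91.0, 140 and 150 CPM with LPS (0.27, standard error 0.119, adjusted p = 0.0756). The LPS value was higher in 3 of 3 WT and 6 of 6 KO pairs of libraries with the same number, but the groups overlapped and the gene was not called. In WT, numbers were not taken to pair libraries in this comparison. Same-numbered KO libraries deviated together in this comparison, and with their number as a block Mki67 was called higher (0.28, adjusted p = 7.46e-04). Without KO replicate 6, the KO groups did not overlap (101 to 133 CPM with vehicle, 134 to 150 CPM with LPS), and the gene was called higher (0.30, standard error 0.0717, adjusted p = 0.00199). Its direction depended on scaling, since with total counts alone it was -0.22 in WT and -0.10 in KO. The plot of CPM by library sets 6 of the other genes beside one another.

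**Figure D3:**
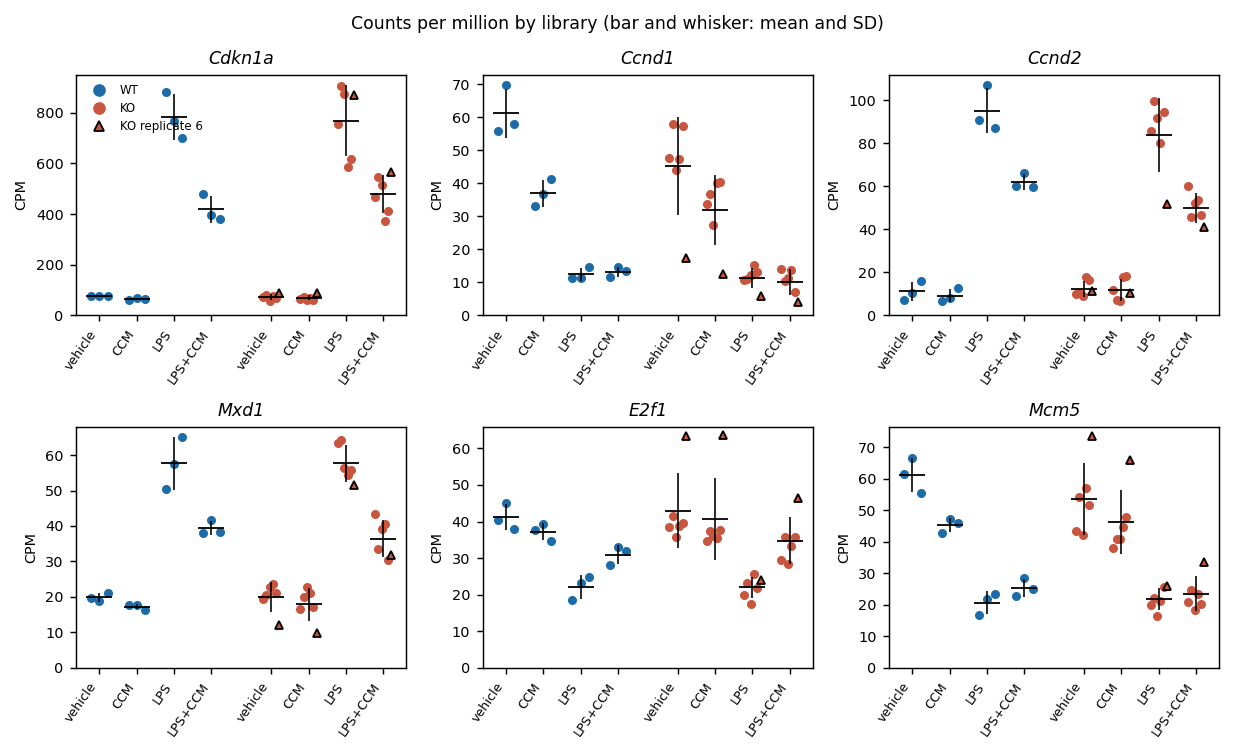
CPM on linear axes of Cdkn1a, Ccnd1, Ccnd2, Mxd1, E2f1 and Mcm5 in all 36 libraries, 1 symbol per library (triangles for KO replicate 6), with a bar and whisker for the mean and SD of each group. Cdkn1a, Ccnd2 and Mxd1 are higher in every LPS library than in any vehicle library of the same genotype, and lie between these levels in most LPS+CCM libraries.

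In KO macrophages the same 4 genes rose and 38 of the 39 genes lowered in WT fell. The called shares of all genes were 22.4% higher and 24.7% lower, and the median over the 48 was -1.264, against -0.054 over all genes. Vehicle values below are the lowest, median and highest of 6 libraries, followed by those with LPS. Cdkn1a had 55.6, 75.1 and 89.6 CPM, then 584, 814 and 905 CPM (log2 fold change 3.37, standard error 0.169, adjusted p = 3.08e-09). Ccnd2 had 8.99, 10.8 and 17.7 CPM, then 51.9, 88.8 and 99.9 CPM (2.76, standard error 0.195, adjusted p = 8.44e-08). Neither gene had overlapping groups, as was the case for 30.6% of all genes in KO. Mxd1 had 12.1, 20.9 and 23.6 CPM, then 51.6, 56.0 and 64.3 CPM (1.54, standard error 0.133, adjusted p = 5.85e-07), and Ccnd3 rose by 0.83. E2f2 again showed the largest fall, from 22.5, 23.4 and 29.4 CPM to 0.921, 1.84 and 2.50 CPM (-3.81, standard error 0.241, adjusted p = 2.75e-08). Ccnd1 had 17.5, 47.5 and 58.0 CPM, then 5.99, 11.7 and 15.3 CPM (-1.98, standard error 0.262, adjusted p = 3.15e-05). Its lowest vehicle library was KO replicate 6, and the groups still did not overlap. Cdkn2c (-2.50), Mcm7 (-2.24), Ccna2 (-1.85), Kif11 (-1.81), Mcm5 (-1.29) and Myc (-1.17) fell as well. Cdk4, which was called in WT, had a log2 fold change of -0.56 (adjusted p = 0.0613) and was lower in 6 of 6 pairs. Without KO replicate 6, 45 members were called, 5 higher and 40 lower, where 32.6% and 36.9% of all genes were. These held all 42 called with it, and also Mki67 (higher), Cdk4 (-0.62, adjusted p = 2.87e-06) and Cdkn1b (-0.36, adjusted p = 7.15e-04), both lower. The same 3 were gained with the replicate block, where 34.1% of all genes were called higher and 37.5% lower. Leaving out KO replicate 1, 2, 4 or 5 left 39 to 41 calls, the lost ones being among Ube2c, Aurka and Cdc20. Cdk6, Ccne1 and Tyms were called neither with nor without KO replicate 6.

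The shift within the D-type cyclins was also put in numbers for KO, where the design allows smaller p-values. The share of Ccnd1 went from 62.3% ± 10.8 to 12.8% ± 2.41 and that of Ccnd2 from 9.07% ± 2.82 to 47.8% ± 5.62 (SD, n = 6 each). For each share the two-sided exact permutation test gave p = 0.00216, the smallest it allows, and 0.0253 after adjustment over 35 within-library comparisons. The log2 ratio of Myc to Mxd1 went from 1.80 ± 0.189 to -0.945 ± 0.429, with the same exact permutation p = 0.00216. In KO every LPS library already lay below every vehicle library for Ccnd1 and Myc, and above for Ccnd2, Ccnd3 and Mxd1. The shares and the ratio were thus bound to separate, and their p-values add no support beyond the single genes, in KO or in WT.

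The LPS effect on these genes was not shown to differ between genotypes. For the interaction of genotype and LPS, edgeR called 0 of the 48 and 0% of all genes, and DESeq2 called 0. By edgeR 0 members had an unadjusted p under 0.05, against 112 of all 15093 genes tested. The interaction estimate was above 0, meaning a smaller fall or larger rise in KO, for 40 of the 48. With vehicle alone, edgeR called 0 of the 48 and 0% of all genes between KO and WT, and DESeq2 called 0 of the 48. By edgeR 5 members had an unadjusted p under 0.05 (Foxm1, Ccna2, Aurkb, Ccnb1 and Ccnb2), as had 118 of all 14385 genes tested. Foxm1, at -0.39, and Ccna2, at -0.33, were among them. The difference was below 0 for 41 of 48 genes, including all 8 S, G2 and M genes and all 7 mitotic genes, with a median of -0.18 against 0.01 over all genes. Both counts were also 0 without KO replicate 6.

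**Figure D4:**
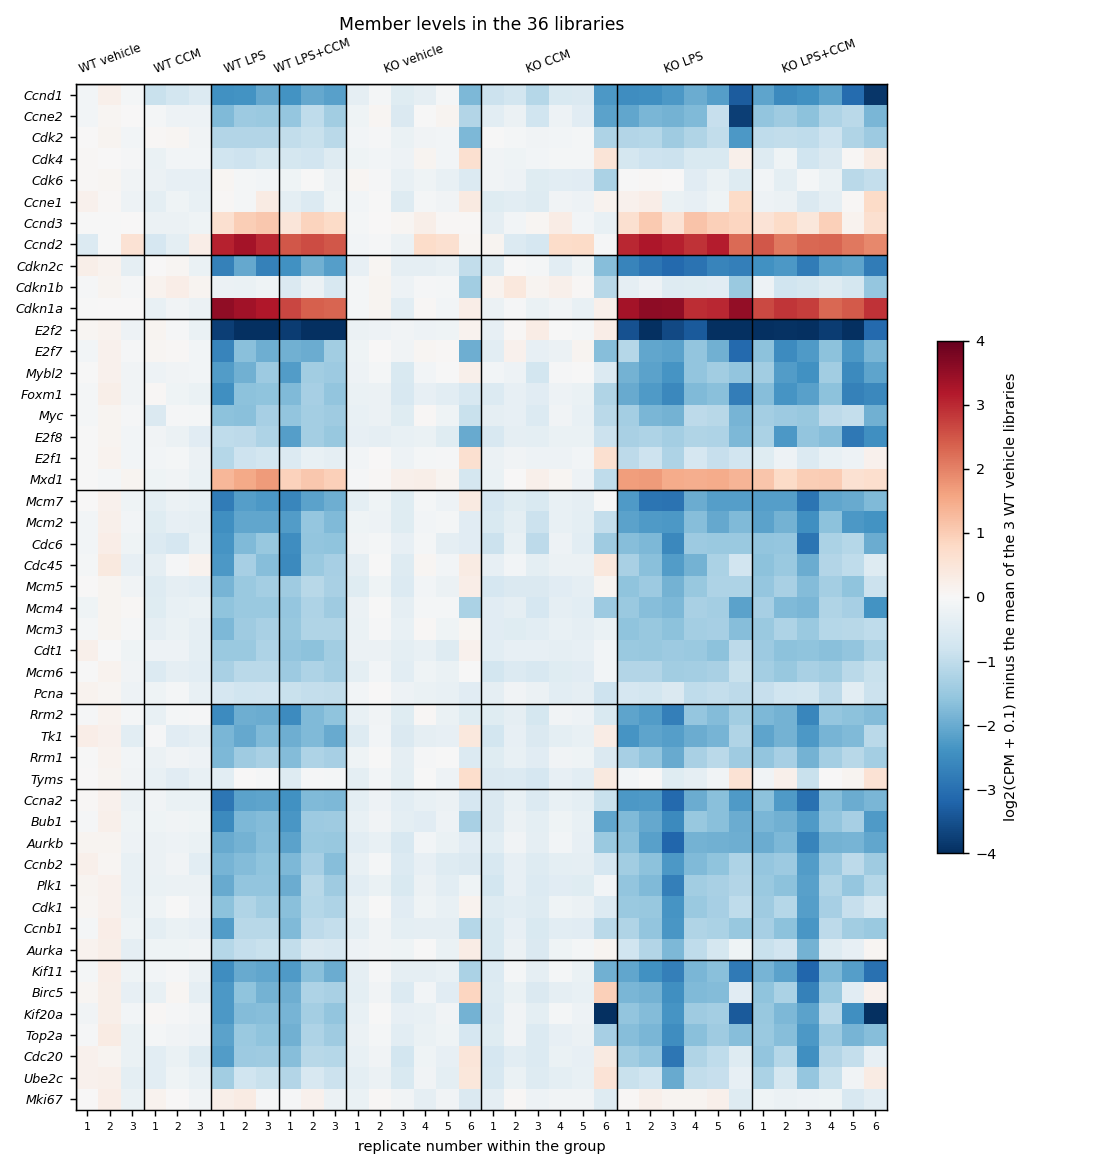
Log2(CPM + 0.1) of the 48 genes in the 36 libraries minus the mean of the 3 WT vehicle libraries, by colour, with the colour scale ending at 4 in either direction. Rows are genes by role and columns are libraries by genotype and treatment, and most rows are lower in the LPS and LPS+CCM columns of both genotypes while Cdkn1a, Ccnd2, Mxd1 and Ccnd3 are higher.

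Further replication and mitosis genes were mostly called lower under LPS in WT, and 3 lists of regulators were not. Of 52 further replication genes, 44 were called lower and 3 higher, the checkpoint adaptor Clspn (-3.21) and the uracil glycosylase Ung (-3.04) falling most and the fork protection factor Timeless (0.68) rising most. Of 71 further mitosis genes, 66 were called lower, led by the condensin subunit Ncapg2 (-3.06), and 2 higher, securin (Pttg1, 2.04) and Trip13 (1.29). Of the 25 retinoblastoma, E2F and DREAM components 9 were called higher and 9 lower, with a median of -0.061. This and the counts of the next 2 lists are near the 30.6% higher and 32.4% lower of all genes. The pocket protein p107 (Rbl1) rose by 1.28 and E2f5 by 1.18, while the E2F partner Tfdp2 (-2.19) and the kinase Wee1 (-1.82) fell. In the MYC and MAX network, Mycl (3.96) and Max (1.49) rose, Mxd4 (-2.89) and Mxi1 (-2.33) fell, and 4 of 9 were called in each direction. Of 24 p53 targets and checkpoint genes, 8 were called in each direction. Gadd45b (2.45) and Mdm2 (1.15) rose, as Cdkn1a did, and Sesn1 (-3.12) and Chek2 (-2.33) fell. In KO the counts in the same order were 40 lower and 3 higher, 60 and 3, 8 and 7, 3 and 3, and 7 lower and 5 higher, where 24.7% of all genes were called lower and 22.4% higher.

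Markers of marrow progenitors, cells that divide, and of the neutrophil lineage also differed between the groups. Of the 5 markers, Flt3 was at 0 in 1 library and the others in none. Their sum was 38.72 to 46.25 CPM in WT vehicle libraries, 20.72 to 26.32 CPM with LPS, 27.45 to 30.62 CPM with CCM and 15.1 to 22.68 CPM with LPS and CCM. Of the 5, Cd34 (-2.37) and Flt3 (-1.77) were called lower with LPS in WT and Kit, Gata2 and Meis1 were not called, and in KO Cd34 (-1.72) was called. Log2 fold changes with LPS were below 0 for only 3 of the 5 in WT and 2 of the 4 tested in KO, so the markers did not fall as a group. In KO the sums were 31.66 to 43.41, 19.29 to 29.24, 25.34 to 31.86 and 11.03 to 21.35 CPM in the same order of treatments. Of 8 neutrophil-lineage markers tested, LPS in WT lowered 6, among them Retnlg (-5.55), Elane (-2.41), Mpo (-2.38) and Ltf (-1.87), and raised 2, and in KO it lowered 4 and raised 1. With CCM alone in WT all 8 were below 0 and 0 were called by edgeR. Their sum was 666.2 to 730.3 CPM in WT vehicle libraries, 437.9 to 703.8 CPM with CCM, 516.1 to 562.4 CPM with LPS and 440.7 to 524 CPM with both. Fibroblast markers summed to 504.7 to 1417 CPM in WT vehicle libraries, 339.5 to 815.6 CPM with CCM, 565.3 to 788 CPM with LPS and 647.6 to 742 CPM with both. With CCM alone in WT 6 of 6 tested were below 0 and 0 were called. With LPS in WT 3 of 6 were below 0 and 1 was called, higher. The part of these cells in the changes above and below was not tested.

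In unstimulated macrophages CCM was associated with slightly lower values of licensing genes and Ccnd1, of which none was called in the main fits. In WT, edgeR called 0 of the 48 genes and 0.0570% of all genes. Its unadjusted p was under 0.05 for 21 members and for 1404 of all 14024 genes tested. The log2 fold change was below 0 for 44 of 48, with a median of -0.21 against -0.009 over all genes. The groups did not overlap, with CCM lower, for 18 members, as for 8.26% of all genes, and 8 of these were among the 10 licensing and fork genes. Ccnd1 had the largest difference, with 33.1, 36.6 and 41.2 CPM under CCM against 55.8, 69.6 and 58.0 CPM (-0.71, standard error 0.113, adjusted p = 0.0752). Mcm6 had 71.2, 80.9 and 77.6 CPM against 103, 116 and 94.5 CPM (-0.44, adjusted p = 0.122) and Mcm5 42.9, 47.3 and 46.0 CPM against 61.6, 66.5 and 55.5 CPM (-0.42, adjusted p = 0.119). For each of the 3 genes every CCM library lay below every vehicle library. The call depended on the tool, as DESeq2 called 6 members lower, where it called 1.07% of its genes lower. These were Ccnd1 (-0.71, DESeq2 adjusted p = 2.91e-07), Mcm6, Mcm5, Mcm3, Mcm2 and Cdk6.

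In unstimulated KO macrophages edgeR called 0 of the 48 and 0% of all genes, and DESeq2 called 0 of the 48. By edgeR 3 members (Mcm3, Mcm2 and Cdc6) had an unadjusted p under 0.05, as had 333 of all 13799 genes tested. Values were below 0 for 43 of 48, with a median of -0.126 against 0.012 over all genes. Ccnd1 had 17.5, 47.5 and 58.0 CPM (lowest, median, highest) with vehicle and 12.4, 35.2 and 40.4 CPM with CCM, and was lower in 6 of 6 pairs. Same-numbered libraries deviated together here, and edgeR with that number as a block called 8 members lower, where 1.70% of all genes were, and 1 higher, where 1.41% were. The lower ones were Ccnd1 (-0.52, standard error 0.0677, adjusted p = 0.00216), Mcm2 (-0.34), Mcm4 (-0.30), Mcm7 (-0.26), Mcm3 (-0.27), Mcm6 (-0.28), Cdk6 (-0.27) and Tyms (-0.30), each in 6 of 6 pairs. The higher one was the inhibitor Cdkn1b (0.23, adjusted p = 0.04). Without KO replicate 6 and without the block, Ccnd1 and Mcm6 were called lower, where 0.489% of all genes were called lower and 0.525% higher. With the block and without that replicate 11 members were called lower and 1 higher, where 2.78% and 2.47% of all genes were.

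**Figure D5:**
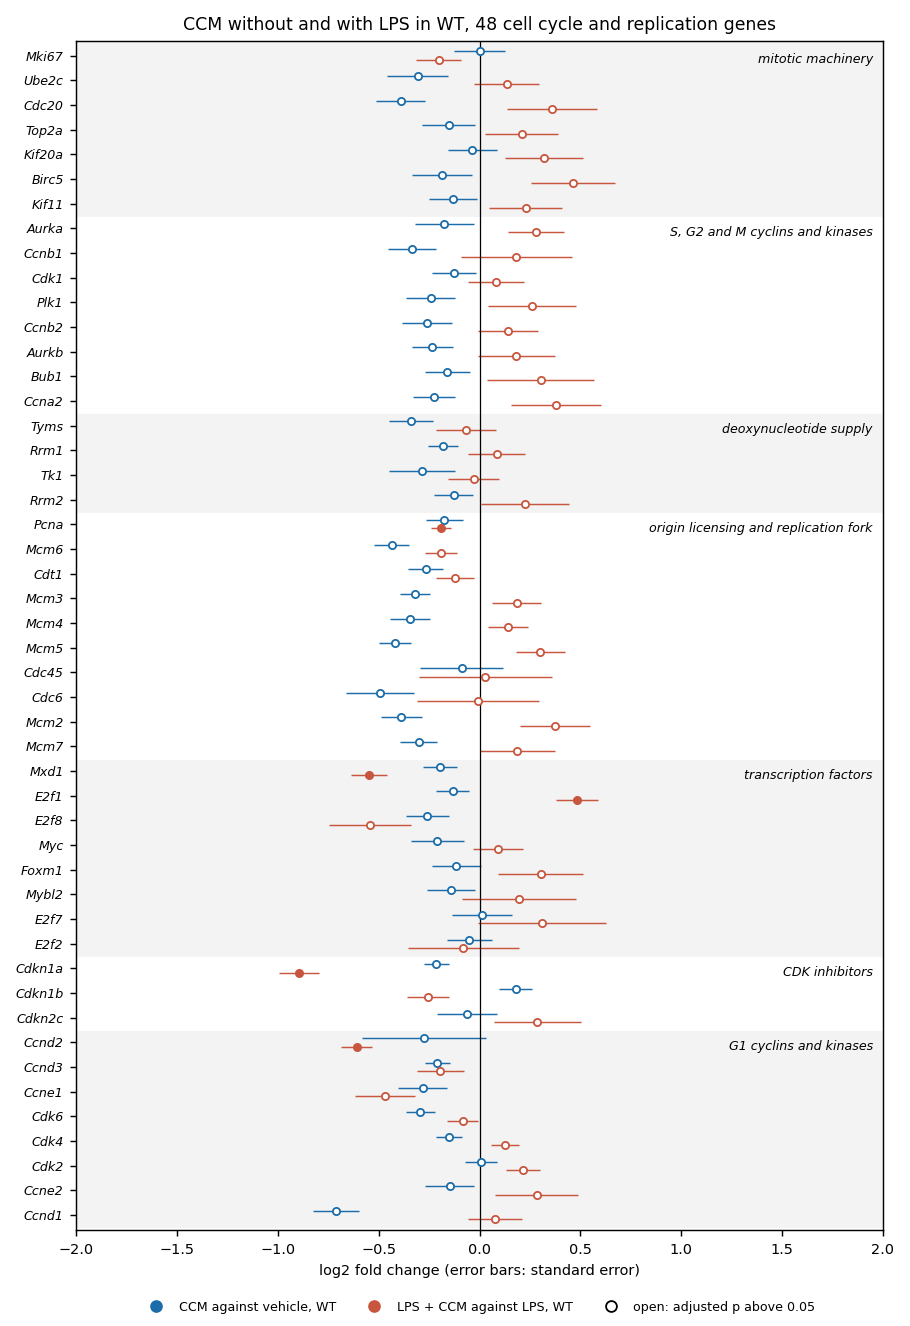
Log2 fold change with CCM of each of the 48 genes in WT macrophages, without LPS (blue) and under LPS (red), with its standard error (n = 3 per group) and open symbols for genes not called. Without LPS all symbols are open and Ccnd1 and the MCM genes lie left of 0, and under LPS the filled symbols are Cdkn1a, Ccnd2, Mxd1 and Pcna left of 0 and E2f1 right of 0.

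Under LPS, Cdkn1a, Ccnd2 and Mxd1, 3 of the 4 genes that LPS raises, were called lower with CCM in WT. In WT macrophages, 4 of the 48 were called lower, where 7.78% of all genes were, and 1 was called higher, where 4.15% were. These counts are near those shares and are no result about the 48 as a set. Whether CCM lowers LPS-raised genes more often than others was not tested. The 48 genes had a median of 0.142 against 0.014 over all genes. Cdkn1a fell from 881, 768 and 700 CPM with LPS to 480, 396 and 381 CPM with LPS and CCM (log2 fold change -0.89, standard error 0.1, adjusted p = 2.96e-04). Ccnd2 fell from 91.1, 107 and 87.3 CPM to 60.0, 66.1 and 59.9 CPM (-0.61, standard error 0.0779, adjusted p = 6.74e-04). Both stayed far above their vehicle libraries. Mxd1 fell from 50.4, 57.4 and 65.2 CPM to 38.0, 41.6 and 38.4 CPM (-0.55, standard error 0.0876, adjusted p = 0.00269). Ccnd3, the other gene raised by LPS, was not called (-0.19, adjusted p = 0.35). E2f1, which LPS lowered, was higher with CCM, from 18.5, 23.3 and 24.7 CPM to 28, 33.1 and 31.8 CPM (0.48, standard error 0.103, adjusted p = 0.0134). Pcna, lowered by LPS, was lower still with CCM, from 263, 240 and 246 CPM to 223, 216 and 212 CPM (-0.19, standard error 0.0505, adjusted p = 0.0338). Groups of these 5 genes did not overlap, as for 14.3% of all genes with CCM higher and 15.8% with CCM lower. Over the 48, groups did not overlap for 2 genes with CCM higher and 6 with CCM lower. The comparison shares its LPS libraries with that of LPS against vehicle, so the opposite directions are not independent of each other. The call of Pcna was lost in 5 of 6 fits that left out 1 library and with total counts alone. The values of all 8 S, G2 and M genes and of 6 of 7 mitotic genes were above 0, between 0.08 and 0.46, and none of these was called.

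The number called under LPS in WT rested on the fit. With total counts alone, 2 members were called higher and 3 lower, where 11.3% and 5.40% of all genes were, and in a fit of all 36 libraries only Cdkn1a was called. The call of E2f1 was lost without LPS+CCM replicate 2. Same-numbered WT libraries deviated together here as well, and with a block for that number 7 members were called higher and 10 lower, where 10.4% and 13.3% of all genes were. Besides the 5 above, the block called Mcm2 (0.37), Mcm5 (0.31), Ccna2 (0.39), Top2a (0.21), Birc5 (0.47) and Cdc20 (0.37) higher. It called Ccnd3 (-0.19), Ccne1 (-0.47), Cdkn1b (-0.26), E2f8 (-0.54), Mcm6 (-0.19) and Mki67 (-0.20) lower.

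In KO macrophages under LPS, Mxd1 was the 1 member called, lower as were 0.105% of all genes. Its lowest, median and highest values were 51.6, 56.0 and 64.3 CPM with LPS and 30.3, 36.3 and 43.3 CPM with LPS and CCM (log2 fold change -0.69, standard error 0.115, adjusted p = 0.0431). Ccnd2 had 51.9, 88.8 and 99.9 CPM against 40.9, 49.6 and 60.4 CPM (-0.77, adjusted p = 0.0679) and Cdkn1a 584, 814 and 905 CPM against 373, 491 and 564 CPM (-0.71, adjusted p = 0.111). E2f1 had 17.5, 22.4 and 25.6 CPM against 28.3, 34.5 and 46.4 CPM (0.64, adjusted p = 0.121). Each of the 4 had the same direction in 6 of 6 pairs of same-numbered libraries, though numbers were not taken to pair libraries in this comparison. Ccnd2 alone of the 4 had overlapping groups, where the groups of 1.37% of all genes did not overlap. Without KO replicate 6, where 0.953% of all genes were called lower and 0.313% higher, all 4 were called (adjusted p = 0.00386 for Ccnd2, 0.017 for Mxd1, 0.0351 for E2f1 and 0.0388 for Cdkn1a), as they were by DESeq2. The call of Mxd1 was lost without any single replicate of KO replicates 1 to 5.

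Within libraries, CCM was associated with a lower summed D-type cyclin level in all 4 comparisons, from 18.1 ± 1.66 to 12.2 ± 1.27 CPM per kilobase in unstimulated WT and from 20.2 ± 1.74 to 15.9 ± 1.55 under LPS in WT. In both, the exact permutation p = 0.1 was the smallest possible. In KO it was 15.0 ± 3.26 with vehicle and 11.8 ± 2.94 with CCM (exact permutation p = 0.104 without pairing, adjusted 0.173), lower with CCM in 6 of 6 pairs of same-numbered libraries. Under LPS it was 18.6 ± 2.71 alone and 13.4 ± 2.07 with CCM added (exact permutation p = 0.00649, adjusted 0.0568). The log2 ratio of Myc to Mxd1 under LPS was higher with CCM, -0.328 ± 0.0855 against -0.966 ± 0.107 in WT and -0.136 ± 0.39 against -0.945 ± 0.429 in KO (exact permutation p = 0.0152 in KO, adjusted 0.0884). Neither KO difference passed the adjusted threshold. Under LPS, Myc values with and without CCM overlapped in both genotypes, while those of Mxd1 did not. Ccnd1 made up 71.7% of the sum in WT vehicle libraries. The sums and ratios are built from the values of the single genes and add no support beyond them.

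The CCM effect differed between LPS-treated and unstimulated WT macrophages for 4 of the 48 genes by the interaction of LPS and CCM. The interaction was called above 0 for 3, where 0.468% of all genes were, and below 0 for 1, where 1.62% were. Ccnd1 had an interaction of 0.77 (standard error 0.183, adjusted p = 0.0461), its CCM difference being -0.71 without and 0.08 with LPS. Mcm5 had 0.71 (standard error 0.159, adjusted p = 0.0367), with -0.42 and 0.30, and E2f1 had 0.60 (standard error 0.144, adjusted p = 0.0471), with -0.13 and 0.48. Cdkn1a had -0.70 (standard error 0.132, adjusted p = 0.0158), with -0.21 and -0.89. For these 3 positive cases CCM values thus lay on opposite sides of 0 without and with LPS. Of these values only that of E2f1 under LPS was called in the main fits, so a change of direction was not shown. Over the 48 genes 39 interactions were above 0, with a median of 0.335 against 0.015 over all genes. In a fit of all 36 libraries 0 members were called, and the call of Cdkn1a was the only one of the 4 held when any single WT library was left out, with 1 to 5 members called in those fits.

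Among the further pathway genes, CCM under LPS in WT lowered several of those named above that LPS had raised, namely Timeless (-0.90), Pttg1 (-0.33), Trip13 (-0.24), Rbl1 (-0.63), Mycl (-0.72), Max (-0.41) and Gadd45b (-0.53). It raised Clspn (0.98), Mxd4 (0.44) and Sesn1 (0.63), which LPS had lowered. All of these were named for the size of their LPS change, and both comparisons use the same LPS libraries. Opposite directions are therefore not independent and are no sign of a reversal. E2f5, Mdm2, Ung, Ncapg2, Tfdp2, Wee1, Mxi1 and Chek2, also named above, are not listed here. By list, 3 replication genes were called higher and 1 lower of 52, and 2 higher and 2 lower of 71 mitosis genes. Of the retinoblastoma, E2F and DREAM components 1 was higher and 1 lower, of the MYC and MAX network 1 and 2, and of the p53 and checkpoint genes 1 and 4. Over all genes 4.15% were called higher and 7.78% lower, so these counts are no result about the lists. In KO 0 genes of these lists were called by edgeR.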

How the data were processed

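Poly(A) RNA of 36 BMDM libraries was sequenced by the authors. The deposited values are raw counts of read pairs per gene, which per the submitters' processing notes and the paper's methods come from fastp, HISAT2 2.0.5 on mm10 and featureCounts 1.5.0-p3, with no normalization. Whether counting used strand is not given in the sources used here, so members that overlap another gene (25 of 48) are uncertain. Besides those named above, they include Ccna2, Ccne2 and Kif20a, whose overlapping genes Exosc9, Ints8 and Cdc23 had up to 759, 614 and 601 counts in a library. All count columns were used (0 left out).

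Counts were tested with edgeR 4.0.16 in R 4.3.3 (filterByExpr, TMM, quasi-likelihood test, only the groups compared, Benjamini-Hochberg over all genes tested, threshold 0.05), and DESeq2 1.42.0 was an alternative. Depth was 13469262 to 28288923 pairs per library, at which the lowest counts of a member in a library were 7 (Ccne2 and E2f7), 12 (E2f2) and 17 (Kif20a), so counting error is large for these at their lowest. The p-values measure the spread between libraries. Scripts were tested on simulated data. Levels per kilobase use the gene model length of the table. Ratios within libraries were compared by two-sided exact permutation tests.

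The 48 members, the pathway lists and the markers were chosen with earlier results of these data known. For LPS in WT, members were named role by role, whether called or not. For LPS in KO, they were mainly at most 6 called members per direction by size of change, with Myc, Mxd1, Cdkn1a, Ccnd1, Mki67 and Mcm5. Other members were named where an alternative fit called them or for comparison, though not called. Pathway genes named for LPS were at most 3 called genes per direction of each list. Replicate numbers were taken to pair libraries where the deviations of same-numbered libraries from their group means correlated above 0.1 in every pair. This held for LPS in KO (0.3 to 0.83), CCM without LPS in KO (0.337 to 0.839) and CCM under LPS in WT (0.151 to 0.36). Alternatives were DESeq2, other scalings, no filter, a fit of all 36 libraries, the replicate block and leaving out replicates. The fit with the block and without KO replicate 6 was chosen after seeing the data. Promoters came from RefSeq on GRCm38.p6.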

Additional observations from a re-analysis of the deposited data

Results flagged for a closer look

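In the KO groups of 6 libraries, 192 sets of member values were examined and 44 held a library with a gap to its nearest neighbour beyond the limit of Dixon's test at 95%. Chance gives about 1 in 20. All 44 such values belonged to KO replicate 6, 25 of them high and 19 low, over 25 members, and these are the libraries with the low mitochondrial share and fewer detected genes. With vehicle, the outlying values of KO replicate 6 were 17.5 CPM for Ccnd1, 144 CPM for Cdk4, 9.45 CPM for Cdk2, 9.99 CPM for Cdkn1b, 12.1 CPM for Mxd1, 63.5 CPM for E2f1, 29.4 CPM for E2f2, 1.39 CPM for E2f7, 3.87 CPM for E2f8, 80.9 CPM for Cdt1, 22.8 CPM for Tyms, 14.6 CPM for Ccnb1, 8.44 CPM for Bub1, 54.5 CPM for Birc5, 13.2 CPM for Kif11, 5.58 CPM for Kif20a and 43.5 CPM for Ube2c. With CCM, the outlying values of KO replicate 6 were 130 CPM for Cdk4, 14.2 CPM for Cdk2, 12 CPM for Cdkn1b, 63.6 CPM for E2f1, 65.7 CPM for Cdt1, 14.5 CPM for Mcm4, 65.9 CPM for Mcm5, 14.1 CPM for Cdc45, 18.1 CPM for Tyms, 43.4 CPM for Tk1, 6.96 CPM for Aurkb, 4.8 CPM for Bub1, 58.1 CPM for Birc5, 1.18 CPM for Kif20a, 28.6 CPM for Cdc20 and 46.4 CPM for Ube2c. With LPS, the outlying values of KO replicate 6 were 105 CPM for Cdk4, 9.39 CPM for Cdkn1b, 4.45 CPM for E2f8, 34.5 CPM for Cdt1, 20.7 CPM for Tyms, 15.1 CPM for Tk1, 91 CPM for Mki67 and 21.9 CPM for Birc5. With LPS+CCM, the outlying values of KO replicate 6 were 19 CPM for Ccne1, 2.98 CPM for E2f2 and 16.5 CPM for Tk1. The high values included Cdt1, Tyms and Tk1, and the low ones Cdk2, Cdkn1b and Kif20a.

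The CCM effect differed between LPS-treated and unstimulated WT macrophages, by the interaction in edgeR's quasi-likelihood test, for Ccnd1 (0.77), Mcm5 (0.71), E2f1 (0.60) and Cdkn1a (-0.70), with adjusted p = 0.0461, 0.0367, 0.0471 and 0.0158.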

How the results depend on the processing

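For LPS, 43 to 44 members were called in WT and 39 to 45 in KO when single replicates were left out. Over all genes these fits called 4115 to 4572 higher and 4242 to 4517 lower in WT. In KO they called 2603 to 4509 genes higher and 2804 to 5103 lower. Without LPS, the count for CCM in WT went from 0 to 6 with DESeq2, 9 with no filter and 6 with the replicate block. Calls over all genes, higher and lower, moved too. They went from 7 and 1 of 14024 to 138 and 109 of 10234, 143 and 234 of 25725, and 98 and 157 of 14024. In KO the count went from 0 to 9 with the block, 12 with the block and without KO replicate 6, and 0 to 2 without single replicates. All-gene calls there went from 0 to 195 and 234 of 13799, 343 and 386 of 13899, and at most 73 and 68. Under LPS, the count for CCM in WT went from 5 to 10 with no filter, 1 in a fit of all 36 libraries and 17 with the block, and was 4 to 7 without single replicates. Higher and lower calls over all genes went from 564 and 1057 of 13579 to 806 and 1293 of 25292, 6 and 11 of 15720, and 1417 and 1803 of 13579. Without single replicates they were 216 to 462 and 677 to 918. In KO it went from 1 to 4 with DESeq2, 0 with total counts alone, 0 with no filter, 3 with all 36 libraries, 4 with the block, 4 with the block and without KO replicate 6, and 0 to 4 without single replicates. All-gene calls, higher and lower, went from 1 and 14 of 13386 to 45 and 135 of 14076, 1 and 10, 0 and 10, and 147 and 138 of 15720. With the block they were 223 and 554 of 13386, or 66 and 238 of 13429 without that replicate. Without single replicates they were at most 42 and 128. The interaction of LPS and CCM went from 4 to 7 with DESeq2, 13 with no filter, 0 with all 36 libraries and 8 with the block, and was 1 to 5 without single libraries. Its all-gene calls went from 69 and 239 of 14747 to 131 and 576 of 7343, 301 and 420 of 27859, 0, and 150 and 398 of 14747. Without single libraries they were 18 to 69 and 127 to 226. The cause of these differences was not tested. KO against WT and genotype by LPS stayed at 0 called members in every alternative run, and no called member reversed its direction in any comparison, while Mki67 under LPS, which was not called, did so with total counts alone. Not every same-numbered pair passed the correlation limit of 0.1 in 3 comparisons. These were LPS in WT (0.0457 to 0.172), CCM without LPS in WT (0.0519 to 0.463) and CCM under LPS in KO (-0.102 to 0.813). In each of the 2 WT comparisons, 2 of 3 pairs passed it. All 3 treated libraries there correlated best with their own number, so the block may pair libraries in WT. No paired analysis was possible because WT and KO numbers name different animals for KO against WT. Depth did not limit the members, which passed the filter in all comparisons.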
